A study of Mus musculus with 6 samples.

Results

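The mitosis genes are 40 genes whose products carry a cell from chromosome condensation through spindle assembly and chromosome separation to division. They were given by name, by a rule that uses no measured value, but were chosen with earlier results of these data known. All 40 were listed among the 22833 genes of the NG2 line and the 21008 genes of the Tbx18 line, which hold 23494 genes between them. Their UMIs (unique molecular identifiers, 1 for each captured transcript) were followed through 17033 single cells of the mouse cerebral cortex. The cells came from mice of 3 to 4 months of either the genotype NG2-Cre-ERT2/Ai14-flx (the NG2 line) or the genotype Tbx18-CreERT2/Ai14-flx (the Tbx18 line), in which tamoxifen switches on the red reporter tdTomato (tdT) in cells that use the Cspg4 (NG2) or the Tbx18 promoter, and in their descendants. All animals received tamoxifen, 7 days before injury in the injured groups. Each line was collected in a naïve state, 3 days after physical injury (an injection of saline) and 3 days after ischemic injury (an injection of the vasoconstrictors ET-1 and L-NAME), and live tdT+ cells were sorted, pooled within a condition and sequenced as 1 library. Cspg4 also drives Cre in oligodendrocyte precursor cells (OPCs) and Tbx18 in smooth muscle cells, so that a tdT+ cell need not descend from a pericyte. With 1 pooled library per condition no spread between animals could be measured and no test was made. Intervals are 95% intervals and cover counting error only.

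Entry into mitosis is set by the kinase Cdk1 with its B-type cyclins, and exit by the anaphase-promoting complex, which marks cyclins and securin for destruction. Aurora kinases, the kinetochore and the spindle checkpoint hold separation back until each chromosome is attached, and kinesin motors build the spindle and the cleavage furrow. In the resting adult cortex most cells have left the cycle, OPCs being the main dividing cells, while after an injury microglia, OPCs, endothelial cells and fibroblasts are known to divide.

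Most of these genes are switched on together, late in the cycle. Their promoters commonly carry a CHR (cell cycle genes homology region, with the letters TTTGAA and, in a less common form, the letters TTCGAA), at which the DREAM complex holds them off in resting cells, and CCAAT boxes, which NF-Y binds. RefSeq promoters (mouse build GRCm38.p6, 250 bases before to 50 bases after each gene's start) were held in the reference table for 35 of the 40 genes, without Ccna2, Tpx2, Aurkb, Cdc25c and Smc4. Either form of the CHR was found, on either strand, in 27 of the 35 (77.1%), against 21.7% of the promoters of all 27025 genes in that table. Within the last 100 bases of the window, which hold the start, 23 of 35 (65.7%) carried it, against 6.12% of all genes. CCAAT was found in 27 of 35 (77.1%), against 41.1%, and both motifs in 23 of 35 (65.7%), against 8.61%. A match is a string of letters and was not tested as a site. The promoters below are shown for 6 members that the results turn on: Cdk1, Ccnb2, Top2a and Plk1, which differed with injury, and Ckap2l and Kif23, which were also counted outside dividing cells. Capitals mark each string of the CHR in either form and each CCAAT, on either strand, and each sequence runs 5′ to 3′ on the gene's strand.
Cdk1, chr10:69352863-69353162 (minus strand): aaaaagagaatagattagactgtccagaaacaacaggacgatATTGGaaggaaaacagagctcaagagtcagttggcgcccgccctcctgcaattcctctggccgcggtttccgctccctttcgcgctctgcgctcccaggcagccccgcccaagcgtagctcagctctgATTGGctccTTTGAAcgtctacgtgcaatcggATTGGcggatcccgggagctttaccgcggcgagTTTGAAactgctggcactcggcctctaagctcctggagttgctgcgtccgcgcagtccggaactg
Ccnb2, chr9:70421505-70421804 (minus strand): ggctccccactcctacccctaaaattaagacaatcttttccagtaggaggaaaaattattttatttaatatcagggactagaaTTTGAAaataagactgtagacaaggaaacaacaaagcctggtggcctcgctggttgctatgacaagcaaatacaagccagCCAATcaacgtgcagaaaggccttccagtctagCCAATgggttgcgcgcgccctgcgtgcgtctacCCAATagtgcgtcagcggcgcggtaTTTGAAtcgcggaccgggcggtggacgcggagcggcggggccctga
Top2a, chr11:99024140-99024439 (minus strand): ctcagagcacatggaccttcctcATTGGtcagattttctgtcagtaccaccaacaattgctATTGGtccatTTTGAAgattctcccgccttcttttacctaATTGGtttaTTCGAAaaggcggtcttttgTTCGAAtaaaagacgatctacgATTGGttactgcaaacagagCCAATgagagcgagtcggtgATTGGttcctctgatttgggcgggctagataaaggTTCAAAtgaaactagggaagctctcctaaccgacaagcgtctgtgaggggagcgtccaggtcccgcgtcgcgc
Plk1, chr7:122159185-122159484 (plus strand): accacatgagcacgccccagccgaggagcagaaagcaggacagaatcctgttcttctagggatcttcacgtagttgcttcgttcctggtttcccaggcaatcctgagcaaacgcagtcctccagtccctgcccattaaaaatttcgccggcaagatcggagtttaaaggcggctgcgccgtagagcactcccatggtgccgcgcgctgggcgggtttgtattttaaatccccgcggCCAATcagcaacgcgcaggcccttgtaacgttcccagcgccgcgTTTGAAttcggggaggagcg
Ckap2l, chr2:129297163-129297462 (minus strand): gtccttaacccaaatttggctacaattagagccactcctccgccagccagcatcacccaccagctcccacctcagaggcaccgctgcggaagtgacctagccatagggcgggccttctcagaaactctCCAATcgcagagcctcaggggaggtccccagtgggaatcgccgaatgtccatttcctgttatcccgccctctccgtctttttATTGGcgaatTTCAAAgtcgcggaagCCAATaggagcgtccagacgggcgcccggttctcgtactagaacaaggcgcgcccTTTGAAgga
Kif23, chr9:61946750-61947049 (minus strand): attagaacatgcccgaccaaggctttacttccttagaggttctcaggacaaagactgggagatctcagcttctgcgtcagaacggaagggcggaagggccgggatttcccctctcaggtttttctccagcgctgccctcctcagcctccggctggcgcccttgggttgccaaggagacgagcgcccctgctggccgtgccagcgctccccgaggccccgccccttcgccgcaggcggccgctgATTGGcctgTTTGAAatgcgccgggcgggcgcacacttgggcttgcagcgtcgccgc
Top2a held 4 CHR strings and 6 CCAAT strings, the others 1 or 2 CHR strings and 1 to 3 CCAAT strings. The CHR string nearest to the start lay at -15 in Cdk1, at 5 in Ccnb2, at -23 in Top2a, at 31 in Plk1, at -30 in Ckap2l and at 3 in Kif23, counted in bases from the gene's start. Birc5, Nuf2, Nusap1 and Tacc3 had neither motif in this window.

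Libraries held 686 (Tbx18 naïve) to 4306 (NG2 naïve) cells with medians of 2806 to 9232 UMIs, and 30 cell barcodes occurred in more than 1 library. Injured libraries were deeper than naïve ones, so each cell was thinned to 1000 UMIs before cells were counted, which left out 33 to 149 shallower cells per library. Clusters and their names are those of the study and were formed with the mitosis genes among others, so that a contrast of clusters is a description. The names of both clusters that held most of the cells with 2 or more of the mitosis genes after injury, by the 35 genes described below, were compared with marker lists. NG2 cluster 7, named radial glial precursors (RGPs), had radial glia markers (Fabp7, Sox2, Dbi, Slc1a3, Nes, Vim) at a summed 9868 CPM (UMIs per 1000000 UMIs of the cells) and OPC markers at 5142 CPM after ischemic injury, with pericyte markers at 49.0 CPM. Vim of that list was also high in Tbx18 cluster 4 (given below), so the radial glia sum alone does not name the cells. Tbx18 cluster 4, named vascular-genic pericytes, had the 8 pericyte markers at 16100 CPM in the naïve library but at 133 CPM after physical and 26.1 CPM after ischemic injury, against 19250 to 31057 CPM in the cluster of canonical pericytes. Smooth muscle markers (Acta2, Tagln, Myh11 and Cnn1) stood there at 4397 to 6670 CPM. That sum does not name the cells, as Myh11 was nearly absent after ischemic injury from those with 2 or more mitosis genes (given below). The fibroblast gene Col1a1 was found there too. As the pericyte name is not borne out after injury, it is called cluster 4 hereafter. The 17 naïve cells of NG2 cluster 7 had pericyte markers at 13650 CPM and went against the name of their cluster as well.

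Of the NG2-tdT+ cells, 2 or more of the 40 mitosis genes were found at 1000 UMIs in 5.15% (4.5 to 5.86) of naïve cells, 5.90% (5.0 to 6.89) after physical injury and 15.6% (14.4 to 16.9) after ischemic injury. The share was higher by 10.5 percentage points (9.06 to 11.9) in the ischemic than in the naïve library, while physical injury and naïve differed by 0.750 points (-0.389 to 1.94), an interval that spans 0. Without thinning these shares were 38.0%, 56.9% and 70.4%. A level of about 5% was also met in smooth muscle cells, which are not known to divide in the resting cortex: 4.85% of naïve NG2-tdT+ cells of that cluster at a median of 7909 UMIs. That floor was gone there once 5 members, picked by name as genes that other cells also use, were left out. They were Tubb4b (a beta-tubulin), Hmgb2 (a chromatin protein), Smc4 (a condensin subunit), Cks2 (a Cdk1 partner) and Anln (anillin, also a myelin protein). Tubb4b, Hmgb2 and Smc4 had 3461, 3199 and 969 UMIs in the naïve NG2 library, but Anln had 160 and Cks2 122. These 5 genes held 89.0% of all UMIs of the 40 members in naïve NG2-tdT+ cells, and 68.6% and 41.6% of those after physical and ischemic injury. In the naïve smooth muscle cells they held 92.7%, so leaving them out was bound to lower that share. The drop therefore does not test the choice. No cutoff on level set it, as Cenpa, with 132 UMIs in the naïve NG2 library, stayed in. Ckap2l, Kif23, Bub1b and Tpx2, which were also counted outside dividing cells (given below), stayed in too.

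With these 5 left out, smooth muscle cells of the NG2 line gave 0 of 495 naïve cells, which allows a share of up to 0.606% (3 counts of the total, here and at each later share of 0, a bound other than the Clopper-Pearson one), and 0 of 270 after ischemic injury, which allows up to 1.11%. By the remaining 35 genes, 12 of 4236 naïve NG2-tdT+ cells (0.283%, 0.146 to 0.494), 27 of 2493 after physical injury (1.08%, 0.715 to 1.57) and 292 of 3449 after ischemic injury (8.47%, 7.56 to 9.45) carried 2 or more. All 3 pairs of NG2 conditions then differed by more than counting error, physical injury from naïve by 0.80 points (0.375 to 1.31) and ischemic from physical injury by 7.38 points (6.35 to 8.43). Unthinned, the shares by 35 genes were 1.95%, 9.56% and 27.5%.

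Of the Tbx18-tdT+ cells, 2 or more of the 40 genes were found in 3.34% (2.08 to 5.06) of naïve cells, 7.66% (6.82 to 8.56) after physical injury and 8.49% (7.31 to 9.79) after ischemic injury. Unthinned, these were 31.9%, 58.6% and 68.6%. Both injured libraries stood above the naïve one, by 4.32 points (2.41 to 5.87) and 5.15 points (3.07 to 6.97), and the injured libraries differed by 0.834 points (-0.654 to 2.38), within counting error. By the 35 genes, 0 of 629 naïve Tbx18-tdT+ cells were found, which allows up to 0.477%, against 71 of 3696 (1.92%, 1.5 to 2.42) and 54 of 2014 (2.68%, 2.02 to 3.48). The injured Tbx18 libraries could thus not be set apart by this count either, with a difference of 0.760 points (-0.0659 to 1.67).

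**Figure D1:**
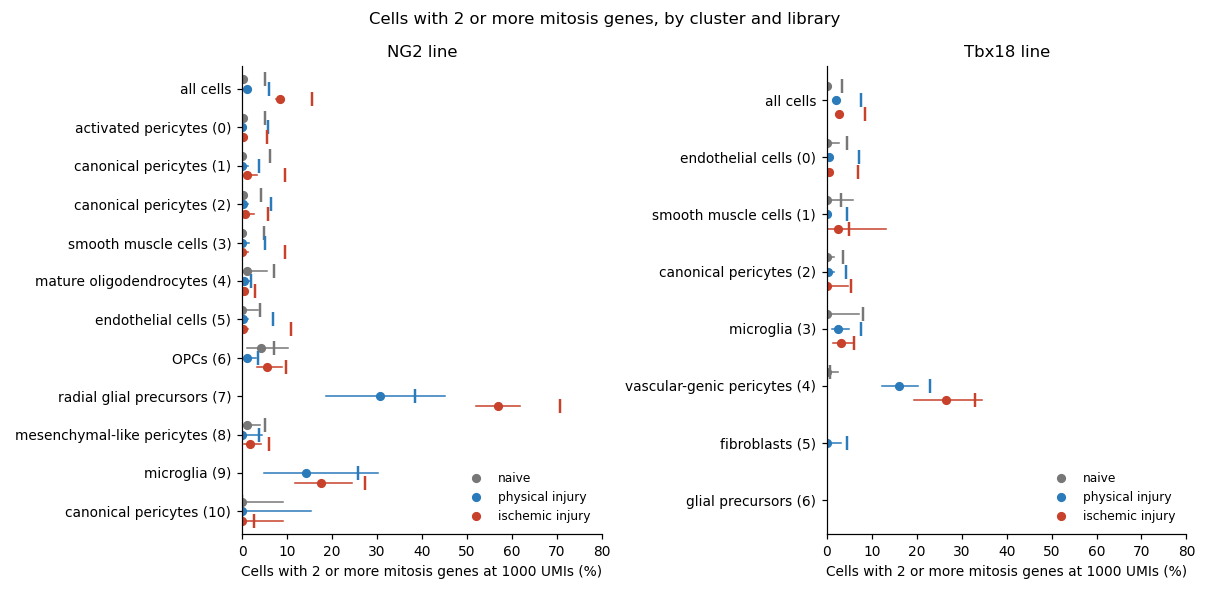
Share of cells (%) with 2 or more of the 35 mitosis genes at 1000 UMIs, by cluster and library of each line, where at least 20 cells reached that depth (dots with 95% counting intervals), and with 2 or more of all 40 (ticks). NG2 cluster 7 after ischemic injury stands highest, at 57.0% and 70.8%, and the highest naïve share by 35 genes is that of the OPCs, 4.12%.

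Summed over a library, the 40 genes made up 439 CPM (430 to 448) in naïve NG2-tdT+ cells, 566 CPM (557 to 576) after physical and 2370 CPM (2357 to 2383) after ischemic injury. The 35 genes made up 48.4, 178 and 1384 CPM in the same libraries. In the Tbx18 line the 40 genes stood at 410, 619 (610 to 628) and 703 CPM (691 to 715). The 35 stood at 48.5, 157 (153 to 162) and 219 CPM (213 to 226) there. Both sums were thus higher after ischemic than after physical injury beyond the counting error of UMIs. These intervals take the UMIs of a cell as independent. After ischemic injury, however, 37 cells of Tbx18 cluster 4 held 1582 of the 4452 UMIs of the 35 genes. The shares of cells given above could not set the injured Tbx18 libraries apart. Naïve cells of both lines thus held about the same level of the 35 genes, and the ischemic NG2 library exceeded the ischemic Tbx18 library.

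Cyclins, Cdk1 and its regulators differed most plainly in the NG2 line. Ccnb1, which encodes cyclin B1, had 0 UMIs in naïve NG2-tdT+ cells, and stood at 3.20 and 34.4 CPM after physical and ischemic injury. Against a floor of 3 counts in the naïve library it was at least 232-fold higher after ischemic and at least 21.6-fold higher after physical injury. Cdk1 itself stood at 0.938, 5.19 and 47.7 CPM in the naïve, physical and ischemic libraries. Ccnb2 (cyclin B2) stood at 0.642, 4.09 and 38.6 CPM, and Ccna2 (cyclin A2) at 0.345, 2.11 and 27.2 CPM. Each of these genes was thus lowest in naïve and highest in ischemic NG2-tdT+ cells. Cdc25c, the phosphatase that activates Cdk1, had 0 UMIs in naïve cells and was at least 56.1-fold higher after ischemic injury, at 8.31 CPM. Plk1, Aurka and Gtse1, which act on the centrosome and in G2, reached 17.9, 11 and 5.05 CPM after ischemic injury from 0.938, 0.888 and 0.444 CPM in naïve cells. In Tbx18-tdT+ cells Cdk1 had 0 UMIs in the naïve library and stood at 4.80 and 7.14 CPM after physical and ischemic injury, so that both injured libraries lay above the naïve one.

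Chromosome passengers and the machinery of anaphase also differed widely between the NG2 libraries. Birc5 (survivin), which anchors the Aurora B kinase to the centromere, had 5 UMIs in the naïve NG2 library, 192 after physical and 4699 after ischemic injury, or 0.247, 7.78 and 86.6 CPM. That is 31.5-fold higher after physical and 351-fold higher after ischemic injury. Ube2c, the ubiquitin-conjugating enzyme of the anaphase-promoting complex, stood at 0.642, 8.39 and 82.9 CPM. Its activator Cdc20 stood at 2.22, 5.27 and 40.6 CPM. All 3 were thus lowest in the naïve library and highest in the ischemic one. Cdca8 (borealin) reached 71.3 CPM, Aurkb 12.9 CPM, and the checkpoint kinases Bub1 and Ttk 16.5 and 8.0 CPM after ischemic injury, from 1.53, 0.148, 0.197 and 0.345 CPM in naïve cells. Bub1b was the exception among checkpoint genes: it stood at 4.74 CPM in naïve cells, 3.08 CPM after physical and 15.4 CPM after ischemic injury.

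Kinetochore genes followed the same order in the NG2 line. Cenpf went from 1.04 CPM in naïve to 10.3 CPM after physical and 94.5 CPM after ischemic injury, which is 91.2-fold between the outer values. Cenpe, a kinesin of the kinetochore, stood at 2.02, 5.39 and 41.2 CPM, and Cenpa, the histone of the centromere, at 6.51, 9.77 and 76.6 CPM. The Ndc80 complex, which binds microtubules, was measured by Nuf2 and Ndc80, which reached 16.6 and 16.0 CPM after ischemic injury from 0.197 and 0.592 CPM in naïve cells. In the Tbx18 line Cenpa stood at 5.39, 17.9 and 18.9 CPM and Cenpf at 0, 3.97 and 7.68 CPM in the naïve, physical and ischemic libraries. Ischemic injury thus stood highest for all 5 genes in the NG2 line, and both injured Tbx18 libraries lay above the naïve one for Cenpa and Cenpf.

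Spindle motors and microtubule proteins spanned the widest range of naïve levels. Tpx2, which activates Aurora A on the spindle, stood at 3.90, 6.89 and 66.2 CPM in the naïve, physical and ischemic NG2 libraries, and Hmmr at 0.296, 4.38 and 45.8 CPM. Kif11, the motor that separates the spindle poles, stood at 1.88, 5.19 and 30.6 CPM, Kif20b at 3.65, 4.54 and 17.9 CPM, and Kif2c at 0.197, 0.973 and 12 CPM. Nusap1, Tacc3, Ckap2 and Ckap2l reached 31.8, 31.8, 41.1 and 46.4 CPM after ischemic injury, from 2.37, 3.06, 1.33 and 1.18 CPM in naïve cells. All were highest in the ischemic library. Kif23, a motor of the central spindle, stood at 0.987, 7.21 and 16.9 CPM in the NG2 line and at 5.07, 15.0 and 24.7 CPM in the Tbx18 line, and alone among the 40 was higher in both injured Tbx18 libraries than in the matching NG2 libraries. Tubb4b stood at 171, 180 and 278 CPM in the NG2 line and at 172, 223 and 203 CPM in the Tbx18 line, a range far narrower than that of the motors.

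Genes of chromosome structure included Mki67, which coats mitotic chromosomes and is the usual marker of cycling cells. It stood at 2.32, 11.6 and 97.5 CPM in the naïve, physical and ischemic NG2 libraries, and at 0, 6.95 and 12.1 CPM in those of the Tbx18 line. Top2a, the topoisomerase that untangles sister chromatids, stood at 1.04, 10.5 and 91.4 CPM in the NG2 line, and was at least 9.12-fold higher after physical and at least 17.8-fold higher after ischemic injury in the Tbx18 line, where the naïve library had 0 UMIs. Smc4 and Hmgb2 were already at 47.8 and 158 CPM in naïve NG2-tdT+ cells and reached 106 and 495 CPM after ischemic injury. Of the genes of cell division after anaphase, Ect2 stood at 1.23, 4.05 and 24.3 CPM and Anln at 7.90, 19.0 and 22.8 CPM in the NG2 line. Cdca3, which marks the mitosis inhibitor Wee1 for destruction, stood at 0.345, 5.31 and 60.5 CPM, and Cks2 at 6.02, 12 and 85.0 CPM. Anln had the smallest ratio of ischemic to physical injury of the 40 in this line, at 1.20-fold.

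**Figure D2:**
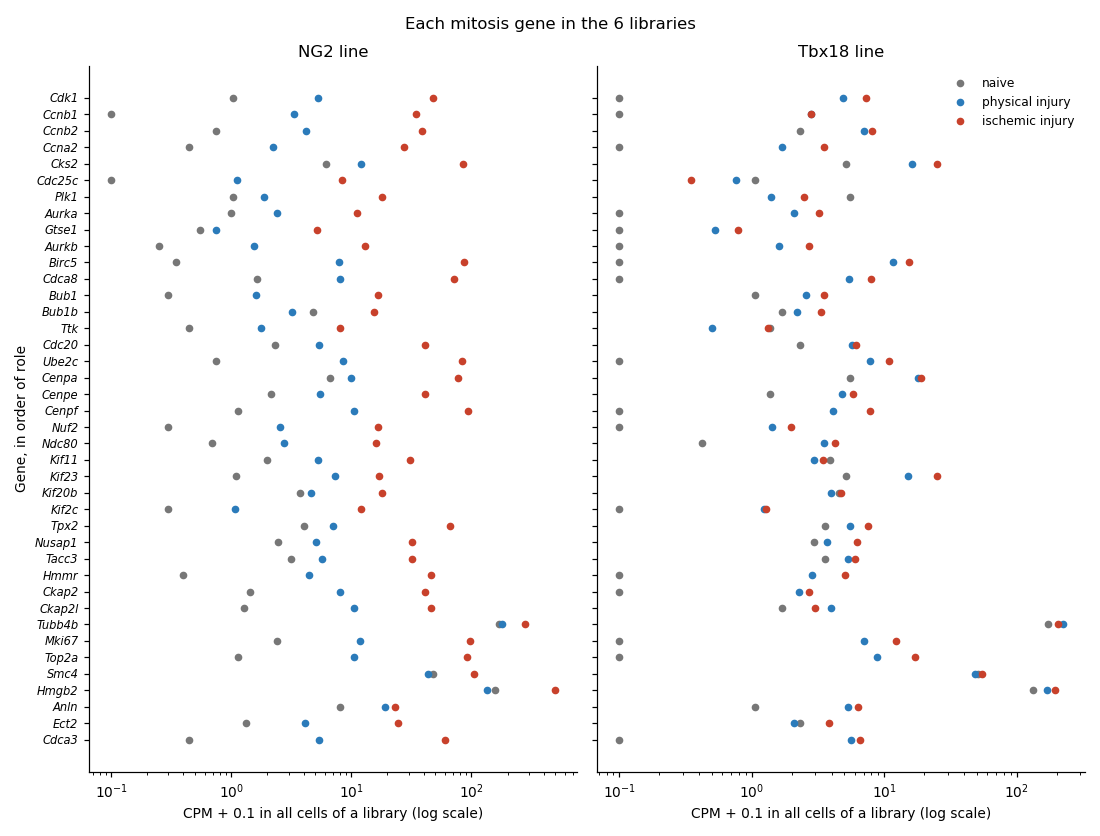
Level of each of the 40 mitosis genes (CPM + 0.1, log axis) in the 6 libraries, with a panel for each line. In the NG2 line all 40 genes lie highest after ischemic injury (red), while in the Tbx18 line both injured libraries lie close together, and above naïve for most genes.

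Taken gene by gene, 39 of the 40 members were at least 2-fold higher in the ischemic than in the naïve NG2 library, on a log2 scale of CPM + 1, where 15.6% of the 19274 genes tested were. Their median log2 ratio was 3.61 against 0.10 over all genes, and 4.64 without the pseudocount and with the 2 genes at 0 UMIs (Ccnb1 and Cdc25c) taken at their lower bound. The ratio was smallest for Tubb4b (0.70), Smc4 (1.13) and Anln (1.42). Physical injury against naïve gave 24 of 40 members at least 2-fold higher, against 13.8% of all genes, with a median of 1.10 against 0.06. Birc5 (2.82), Ube2c (2.52) and Top2a (2.50) had the largest ratios there, and Bub1b (-0.49), Hmgb2 (-0.23) and Smc4 (-0.14) the smallest. With a pseudocount of 10 CPM none of the 24 stayed past 2-fold, and with cluster 7 left out 5 were at least 2-fold higher, against 13.3% of all genes, so nothing is read from the latter count about the members. Ischemic against physical injury gave 38 of 40, against 3.65% of all genes, with a median of 2.61 against -0.02, and 24 with cluster 7 left out, against 2.54% of all genes. Birc5 (3.32), Cdca3 (3.29) and Ccna2 (3.18) led, and Anln (0.25), Tubb4b (0.62) and Kif23 (1.13) came last. The 3 NG2 comparisons share libraries pairwise and are not independent of each other.

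Among Tbx18-tdT+ cells, 24 of 40 members were at least 2-fold higher after physical injury than in naïve cells, against 11.5% of all genes, and 25 of 39 after ischemic injury, against 16.2%. The naïve library held 3153996 UMIs in all, and 17 of the 40 members had 0 UMIs there, where 15387 of the 21008 genes of the line were detected. On the scale of CPM + 1 the median log2 ratios were 1.30 and 1.57, against -0.02 and -0.06 over all genes. Without the pseudocount, and with the members at 0 taken at their bound, those of the members were 1.23 and 1.51. Birc5 was at least 12.2-fold higher after physical and at least 16.0-fold higher after ischemic injury, and Mki67 at least 12.7-fold higher after ischemic injury. Plk1 went the other way, with 17 UMIs (5.39 CPM) in naïve cells, 1.29 CPM after physical and 2.36 CPM after ischemic injury, a log2 ratio of -1.48 after physical injury. Ttk (-0.70) and Kif11 (-0.32) followed it, on 4 and 12 naïve UMIs. With a pseudocount of 10 CPM, 1 and 6 members remained at least 2-fold higher, so most of these counts rest on levels of a few CPM. Ischemic against physical injury gave 0 of 40 members at least 2-fold higher, against 1.52% of all genes, with ratios from -0.42 (Cdc25c) to 0.89 (Top2a) and a median of 0.32 against 0.04. That count of 0 is near the share of all genes, so nothing is read from it about the members. Of the 40 members, 36 had a ratio above 1 in this contrast. In the NG2 line the same contrast moved 38 members past 2-fold. A difference between the lines could not be tested with 1 library each.

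**Figure D3:**
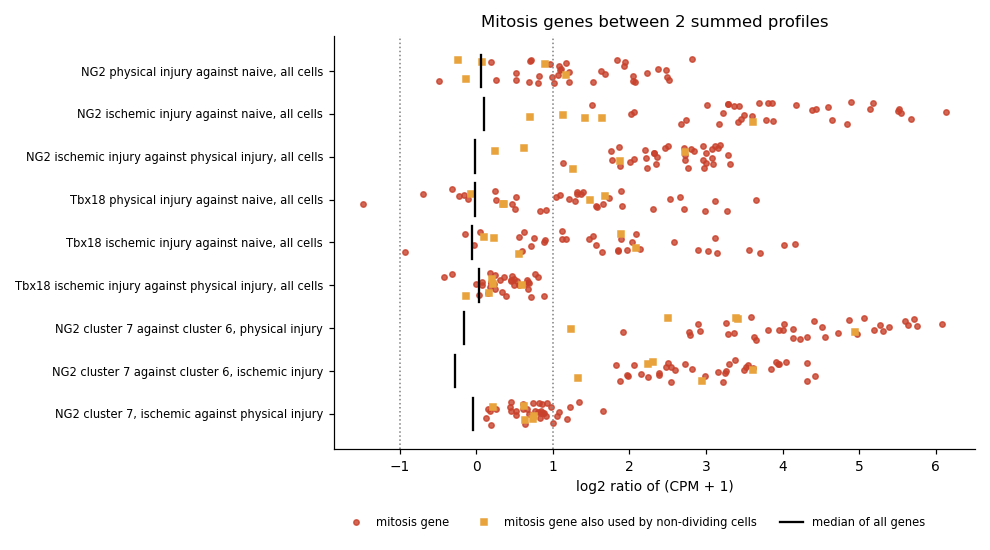
Log2 ratio of CPM + 1 for each of the 40 mitosis genes in 9 comparisons of summed profiles, with squares for the 5 members that other cells use, a black bar for the median of all genes tested and dotted lines at 2-fold. Most members lie above the bar in each comparison, and those of ischemic against physical injury in the Tbx18 line lie within 2-fold.

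After injury, most cells with 2 or more of the 35 genes lay in 1 cluster of each line. NG2 cluster 7 held 438 of the 3586 cells of the ischemic library (12.2%) and 27.9% of its UMIs, but 85.9% of the UMIs of the 35 genes and 80.8% of the cells with 2 or more of them. At 1000 UMIs, 70.8% (66.1 to 75.1) of its 414 cells carried 2 or more of the 40 genes and 57.0% (52.1 to 61.8) 2 or more of the 35. After physical injury the cluster held 76 cells, of which 52 reached the depth, with shares of 38.5% (25.3 to 53.0) and 30.8% (18.7 to 45.1). The share by 40 genes was higher after ischemic than after physical injury by 32.3 points (17.1 to 46.2), and the share by 35 by 26.2 points (11.1 to 39.2). Only 8 of the 17 naïve cells reached the depth, and 1 of them carried 2 or more. Cells of the ischemic cluster were deep, with a median of 37572.5 UMIs against 12792 after physical injury, and 24 cells under 1000 UMIs were left out of each of these shares.

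Unthinned, a cell of ischemic cluster 7 held a median of 23.5 of the 40 genes (range 0 to 40), against 5 after physical injury. Mki67, Top2a, Cdk1 and Ccnb1 were found together in 185 of the 438 cells and in 7 of the 76. Birc5 was found in 73.5% of the ischemic cells, Ube2c in 72.8%, Ckap2 in 71.9% and Gtse1 in 29.9%, against 1.44%, 0.722%, 1.44% and 0% of the smooth muscle cells of the same library, at a median of 8325 UMIs. The summed 40 genes stood at 6633 CPM (6592 to 6674) after ischemic and 4141 CPM (4014 to 4271) after physical injury. Of the 40 genes, 7 were at least 2-fold higher in the ischemic cells of the cluster (Bub1b, Tpx2, Plk1, Ccna2, Cenpe, Kif20b and Kif2c), against 5.5% of the 15235 genes tested, with a median log2 ratio of 0.75 against -0.04. Bub1b stood at 41.2 against 12.4 CPM (log2 ratio 1.66), Tpx2 at 208 against 81.4 CPM (1.34) and Plk1 at 56.7 against 23.7 CPM (1.22). Ndc80 (0.12), Ttk (0.15) and Ckap2 (0.18) differed least. On simulated counts 5.55% of unchanged genes passed 2-fold in this contrast, in either direction. Under TMM scaling (trimmed mean of M-values) 11 members passed 2-fold, and 3 with a pseudocount of 10 CPM. All 40 had a ratio above 1, as did the share of carriers. These are not 40 separate rises in level per cell. After physical injury 16 carriers held 2198 of the 2444 UMIs of the 35 genes in the cluster. A ratio therefore also holds the difference in the share of carriers. Among carriers not all genes stood higher after ischemic injury. Mki67 stood at 438 CPM after ischemic and 451 CPM after physical injury, and Tpx2 at 324 and 219 CPM.

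Cells of ischemic cluster 7 were split by whether 2 or more of the 35 genes were found in the thinned draw. Unthinned, 397 of its 438 cells held 2 or more, so most of the others held them too at full depth. Likeness of the groups was thus largely set by the split, and the marker genes below were chosen after their values were seen. Fabp7, a fatty acid-binding protein of radial glia, stood at 3166 CPM in the 236 carriers and 3145 CPM in the 178 others, the progenitor factor Sox2 at 333 against 303 CPM, and Olig1, a factor of the oligodendrocyte lineage, at 927 against 1002 CPM. Pdgfra, the growth factor receptor of OPCs, stood at 364 against 261 CPM, and the intermediate filament Vim at 2245 against 2878 CPM. The driver Cspg4 stood at 122 against 114 CPM, below the 772 CPM of pericytes with fewer than 2 of the 35 genes in the same library, and the pericyte gene Vtn at 20.7 against 14.4 CPM. None of these differed by as much as 2-fold between carriers and others, from which no likeness of dividing and resting cells is read. Carriers were a little deeper, with medians of 40673.5 against 36279.5 UMIs.

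OPCs (NG2 cluster 6), whose marker list is also found in cluster 7, carried fewer mitosis transcripts. By the 35 genes the share was 4.12% (4 of 97) in naïve cells, 1.05% (3 of 286) after physical and 5.59% (16 of 286) after ischemic injury, and the injured libraries differed by 4.55 points (1.46 to 7.98). The naïve share cannot be set apart from either injured one at this number of cells. Pericyte markers were at 9192 CPM in the 4 naïve carriers against 1376 CPM in the other naïve OPCs, and at 1509 against 208 CPM after ischemic injury. Their part in these shares was not tested. All 40 members were at least 2-fold higher in cluster 7 than in cluster 6 within the physical injury library, against 10.4% of all genes, and within the ischemic injury library, against 8.36%. Medians were 4.13 against -0.16 and 2.97 against -0.28. Cluster 7 was formed with these genes, and the study lists Top2a and Cdca8 among its markers, so these counts only describe the cluster. Of the physical injury ratios, Ube2c (6.08), Birc5 (5.75) and Cdk1 (5.72) were largest and Tubb4b (1.23), Kif20b (1.92) and Anln (2.50) smallest. In the ischemic library Cdc20 (4.42), Hmmr (4.33) and Cdca3 (4.31) led, and Tubb4b (1.32), Ect2 (1.82) and Ttk (1.87) came last. With at least 50 counts asked over both clusters, 25 members could still be tested in the physical injury library and all 25 passed.

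Microglia of the NG2 line (cluster 9) came second. By the 35 genes 27 of 154 cells (17.5%, 11.9 to 24.5) carried 2 or more after ischemic injury and 5 of 35 (14.3%, 4.81 to 30.3) after physical injury, against 0 of 16 naïve cells, which allows up to 18.8%. Ckap2l, which was also counted in microglia with fewer than 2 of the 35 genes, is among them, and in a count chosen after seeing the data the remaining 34 gave 25 cells (16.2%, 10.8 to 23.0) and 4 cells (11.4%, 3.20 to 26.7). The 40 genes summed to 2588 CPM after ischemic and 1939 CPM after physical injury, and to 480 CPM in naïve cells. Carriers were deeper than the other microglia of the ischemic library, with medians of 44193 against 19357 UMIs, and had the microglia list at 18439 against 20536 CPM. They also had the oligodendrocyte list at 1611 against 274 CPM, whose part was not tested. Pericytes (clusters 0, 1, 2 and 10 together) carried 2 or more of the 35 genes in 4 of 3247 naïve cells (0.123%), 1 of 1108 after physical injury (0.0903%) and 6 of 1068 after ischemic injury (0.562%, 0.206 to 1.22). Ischemic and naïve pericytes differed by 0.439 points (0.0347 to 1.10), on 6 and 4 cells. By all 40 genes they differed by 1.35 points (-0.271 to 3.15), an interval that spans 0. Mesenchymal-like pericytes (cluster 8) were not in this pool. By the 35 genes they gave 2 of 174 naïve cells (1.15%), 0 of 80 after physical injury, which allows up to 3.75%, and 4 of 237 after ischemic injury (1.69%, 0.462 to 4.26). Mature oligodendrocytes stood at 0.350% (2 of 572) and endothelial cells at 0.223% (1 of 448) after ischemic injury.

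Without cluster 7, the share by 35 genes was 0.260% in naïve cells, 0.451% after physical and 1.85% (1.40 to 2.39) after ischemic injury. Ischemic injury then still differed from naïve, by 1.58 points (1.09 to 2.14), whereas the interval of physical injury minus naïve, 0.190 points (-0.114 to 0.568), spanned 0.

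Cluster 4 of the Tbx18 line held 68.5% of the cells with 2 or more of the 35 genes after ischemic injury and 76.1% after physical injury, in 6.99% and 9.08% of the cells, and 44.8% and 45.8% of the UMIs of these genes. Its own share was 26.4% (37 of 140, 19.3 to 34.5) after ischemic, 16.0% (54 of 337, 12.3 to 20.4) after physical injury and 0 of 152 naïve cells, which allows up to 1.97%. By 40 genes the shares were 32.9%, 22.8% and 0.658%. Ischemic and physical injury differed by 10.4 points (2.08 to 19.3) by 35 genes, so that within this cluster the share was higher after ischemic injury although over the whole line it was not resolved. The 40 genes summed to 2561, 1519 and 405 CPM in the ischemic, physical and naïve cells of the cluster. As the naïve cells carried pericyte markers that the injured ones lacked, a naïve level of cluster 4 is not one of the same cells.

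Carriers in ischemic cluster 4 had smooth muscle actin (Acta2) at 1861 CPM, found in 78.4% of them, against 1679 CPM, found in 37.9%, in the other cells, at medians of 10795 and 7387 UMIs, and the actin-binding Tagln at 4417 against 3359 CPM. Vim stood at 6764 against 4120 CPM, and the fibroblast collagen Col1a1 at 595 against 2012 CPM. Myh11, the myosin of mature smooth muscle, was at 2.26 CPM, Vtn at 6.78 CPM and Rgs5, a pericyte gene, at 0 UMIs in the carriers. The driver Tbx18 was at 4.52 CPM in carriers and 35 CPM in others. These carriers thus had actin, Tagln and Vim with little or none of the mural genes Myh11, Vtn and Rgs5. The pericyte list, which holds Vtn and Rgs5, was low over the whole ischemic cluster (given above). The lack of these 2 genes is therefore not particular to the carriers. The endothelial Cldn5 was at 179 CPM in carriers and 14.0 CPM in others, from 16.2% and 11.7% of the cells.

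Cluster 3 of this line, named microglia and led after injury by the antigen-presenting list (Cd74, H2-Aa, H2-Ab1) at 22642 to 26212 CPM, had 2 or more of the 35 genes in 3.04% (8 of 263) of ischemic and 2.52% (8 of 318) of physical injury cells. Its naïve cells had pericyte markers at 21279 CPM and microglia markers at 26.6 CPM. Endothelial cells (cluster 0) gave 0.541% (8 of 1478) and 0.461% (8 of 1735), and smooth muscle cells 0 of 827 after physical injury, which allows up to 0.363%. Kif23, which was also counted in endothelial cells with fewer than 2 of the 35 genes, is among them, and the endothelial share without it was not computed. In each injured library 1 of the 8 endothelial carriers also had 2 or more DNA replication genes. With cluster 4 left out the line gave 0.907% (0.529 to 1.45) after ischemic and 0.506% (0.295 to 0.809) after physical injury, against 0 of 477 naïve cells, which allows up to 0.629%.

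**Figure D4:**
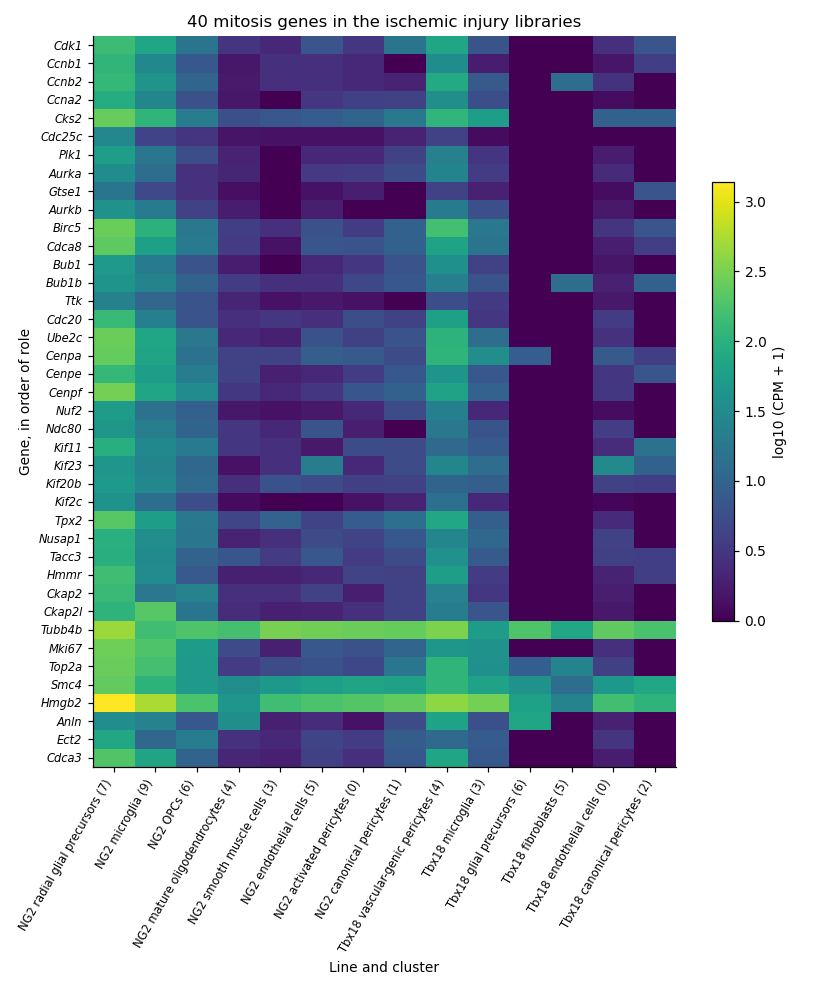
Level of each of the 40 mitosis genes, as log10 of CPM + 1 and ordered by role, in selected clusters of the 2 ischemic injury libraries. NG2 clusters 2, 8 and 10 and Tbx18 cluster 1 are not drawn. The column of NG2 cluster 7 is the brightest of those drawn for nearly all genes, followed by microglia of the NG2 line and cluster 4 of the Tbx18 line, while Tubb4b, Hmgb2 and Smc4 are bright in most columns.

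Which of the 35 genes made up the mitosis UMIs differed between the cells that carried 2 or more of them. Mki67 held 6.67% of them in the carriers of NG2 cluster 7 after ischemic injury, 11.4% in OPCs and 12.6% in microglia, and 15.0% in Tbx18 cluster 3 but 3.29% in Tbx18 cluster 4. Top2a held 6.25%, 10.4%, 11.2%, 15.3% and 8.15% in the same order. Birc5 held 6.24%, 3.47%, 6.60%, 8.07% and 10.4%, with its highest share in Tbx18 cluster 4, where that of Mki67 was lowest. After physical injury Mki67 held 19.4% in Tbx18 cluster 3 and 2.04% in cluster 4, and Birc5 5.12% and 11.4%, so that the order of these clusters was the same in both injured libraries for each gene. Cdc20 and Ccnb1, which peak late in G2 and in mitosis, held 3.26% and 2.74% in NG2 cluster 7, 0.980% and 1.28% in OPCs, 1.40% and 1.96% in microglia, 0.883% and 0.252% in Tbx18 cluster 3, and 3.73% and 2.02% in Tbx18 cluster 4. Carriers numbered 236, 16, 27, 8 and 37 in these groups, and the shares of the smallest rest on 793 UMIs.

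Some members were also counted where mitosis genes as a group were not. Of the 40, 38 had their highest level in cluster 7 of the NG2 line over the 3 libraries, the others being Anln, in mature oligodendrocytes (45.3 against 32.7 CPM), and Ckap2l, in microglia (213 against 106 CPM). For Tbx18-tdT+ cells, 34 were highest in cluster 4, 4 in cluster 3 (Mki67, Kif11, Ect2 and Hmgb2), Kif23 in endothelial cells and Anln in cluster 6. The share of all genes that were highest in these clusters was not computed. As the clusters were formed with the mitosis genes among others, these counts describe the clusters and nothing more is read from them. Anln stood at 33.7 to 109 CPM in oligodendrocytes without mitosis genes, over the 3 libraries of the NG2 line, where the myelin gene Mbp stood at 3469 to 3991 CPM. Ckap2l stood at 203 CPM in the ischemic and 290.5 CPM in the physical injury microglia that carried fewer than 2 of the 35 genes, about as high as in those that carried 2 or more (216 and 299.99 CPM). Il1a, the gene of interleukin-1 alpha, ends 2397 bases upstream of Ckap2l on the same strand and stood at 760 and 1421 CPM in those cells. Kif23 stood at 20.1 to 35.3 CPM in endothelial cells without mitosis genes, over the injured libraries of both lines, and the same-strand Paqr5, which ends 6706 bases upstream, at 182 to 250 CPM. Whether reads of the upstream genes enter these counts was not tested. Bub1b, at 6.0 to 7.03 CPM, and Tpx2, at 4.59 to 9.01 CPM, were counted at a low level in pericytes without mitosis genes in all 3 NG2 libraries. Counts of these members in such cells are not read as division. The annotation also places another gene over part of Ccna2 (Exosc9), Ube2c (Tnnc2), Cdc20 (Elovl1), Nusap1 (Oip5), Tacc3 (Tmem129) and Tubb4b (Fam166a), and Tubb4b and Hmgb2 have near-identical relatives, so their counts are less certain.

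Genes of the other stages of the cycle, from lists chosen by name, were measured in the same cells. In ischemic NG2 cluster 7, 41 further mitosis genes summed to 2614 CPM, against 1724 CPM after physical injury, led by Smc2 (229 CPM), Prc1 (227), Lmnb1 (218) and Pbk (167). The 31 DNA replication genes summed to 1844 and 1129 CPM, led by Pcna, the sliding clamp of the polymerases (201 CPM), Rrm2 (173) and Rrm1 (121), which make deoxynucleotides, and Tipin (95.3). G1 entry genes stood at 1603 and 1445 CPM, of which Ccnd1 (cyclin D1) alone held 957 and 947 CPM and Cdk4 289 and 221 CPM. Cell cycle inhibitors stood at 963 and 1096 CPM, led by Gadd45g (223 CPM after ischemic injury), Cdkn1a, which encodes p21 (152), Btg1 (86.4) and Ccng1 (73.8). Replication and mitosis genes were thus both higher after ischemic than after physical injury within the cluster, while G1 entry genes and inhibitors differed less. Carriers of mitosis genes had Cdkn1a at 119 CPM and the others at 199 CPM.

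In Tbx18 cluster 4 the replication genes stood at 1056 CPM after ischemic, 836 CPM after physical injury and 336 CPM in naïve cells, and the further mitosis genes at 1066, 697 and 306 CPM. Inhibitors took the opposite order, at 671, 1251 and 2757 CPM, with Cdkn1a at 53.8, 76.2 and 388 CPM and Gadd45g at 53.0, 194 and 285 CPM. The naïve cells of this cluster carry pericyte markers, as given above.

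Replication and mitosis genes were often found in the same cell. Of the ischemic NG2-tdT+ cells with 2 or more of the 35 mitosis genes at 1000 UMIs, 50.7% also had 2 or more replication genes, against 6.65% of the other cells. Within cluster 7 these shares were 52.5% and 32.0%. At 1000 UMIs, 57 of its cells had 2 or more replication genes but fewer than 2 mitosis genes, and 112 the reverse. Another 124 had 2 or more of both and 121 of neither. Fewer than 2 in such a draw is not absence, as 397 of its 438 cells had 2 or more of the 35 genes unthinned. In Tbx18 cluster 4 the shares with replication genes, among carriers and other cells, were 45.9% and 12.6% after ischemic and 46.3% and 13.1% after physical injury. There, 13 of 140 ischemic cells had 2 or more replication genes but fewer than 2 mitosis genes. Smooth muscle cells, by comparison, had 2 or more replication genes in 11 of 270 ischemic NG2-tdT+ cells and 2 or more of the 35 mitosis genes in none.

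**Figure D5:**
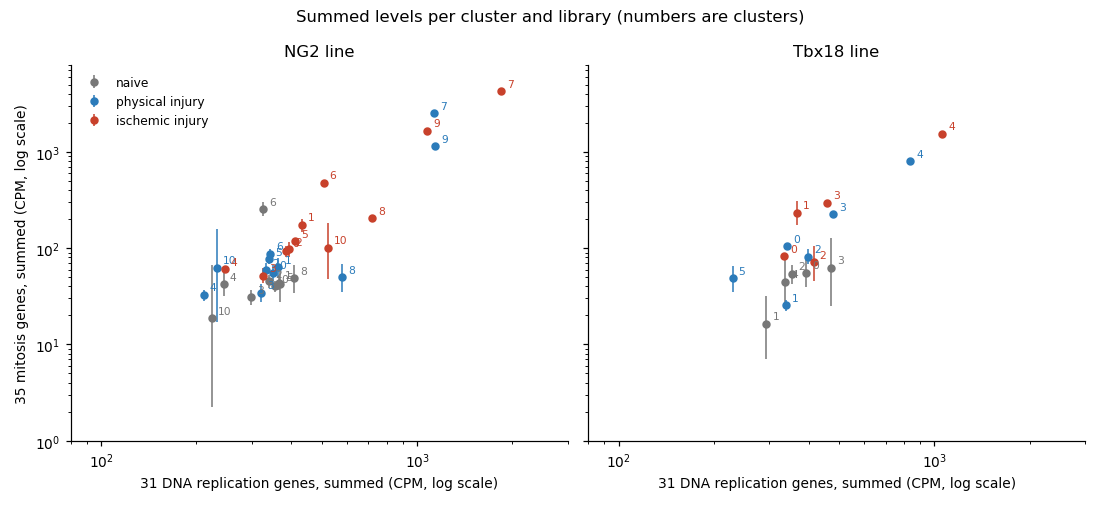
Summed level of the 31 DNA replication genes (CPM, log axis) against that of the 35 mitosis genes (CPM, log axis) in each cluster and library, with numbers for clusters and colours for conditions. NG2 cluster 7 after ischemic injury lies highest on both axes, at 1844 and 4258 CPM, and the same cluster after physical injury comes next on the mitosis axis, at 1129 and 2519 CPM.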

How the data were processed

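Single cells of 6 libraries were captured with the 10x 3' v3 chemistry. The authors counted UMIs per gene and cell with Cell Ranger (7.0.0 in the submitters' processing notes, the last of a range of versions in the study's methods) on mm10, and the deposited tables hold whole-number UMI counts with each cell's library and Seurat cluster. The deposited percent of mitochondrial transcripts was used only for the study's filters, as an alternative. The 40 members and the other gene lists were chosen with earlier results of these data known, and all 40 members are named, from the other lists the 4 highest genes in NG2 cluster 7 after ischemic injury, and from each comparison the 3 largest and 3 smallest ratios. Any gene singled out beyond these (Il1a, Paqr5, Mbp and marker genes) was chosen after its values were seen.

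CPM were taken from the UMIs summed over a library or cluster, with Poisson intervals (exact). Each cell was thinned to 1000 UMIs (seed 20240) and shares were given with Clopper-Pearson intervals at 95%. Ratios were taken on log2(CPM + 1) over genes with 10 or more counts, called at 2-fold, and no p-value was computed. The ratios were tested on simulated counts, where 99.5% to 100% of 200 genes changed 4-fold were recovered in each comparison. These 200 were drawn only from genes at 5 CPM or more over both profiles, as the pseudocount holds lower genes back. The recovery therefore does not cover members below that level, nor changes smaller than 4-fold. Unchanged genes past 2-fold in either direction made up 5.55% for ischemic against physical injury in cluster 7. They made up 3.68% for cluster 7 against cluster 6 after physical injury, and at most 0.527% in the other comparisons. Scrublet marked 65 of 17033 cells (0.382%) as doublets, too few to have worked, so doublets were left in and 460 cells with the highest scores removed as an alternative. Libraries held 3153996 to 54276245 UMIs. Tools were scanpy 1.11.5, Python 3.11.15 with scipy 1.17.1, numpy 2.4.6 and pandas 2.3.3, and edgeR 4.0.16 for TMM factors.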

Additional observations from a re-analysis of the deposited data

Results flagged for a closer look

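Tubb4b, a beta-tubulin used by most cells, stood out because its 2 lines moved apart under the same contrast. Ischemic against physical injury gave a log2 ratio of 0.62 in the NG2 line, from 278 against 180 CPM, and of -0.13 in the Tbx18 line, from 203 against 223 CPM. The difference between the lines was not tested, since each condition is 1 library.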

How the results depend on the processing

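Each value below replaces 1 choice and keeps the rest, and shares are those of cells with 2 or more of the 40 genes at 1000 UMIs. No paired analysis was possible because each condition is 1 pooled library and no result comes from a test. For the same reason no replicate could be left out. Of 327 alternatives, 1 of them (the 34 genes in microglia) chosen after seeing the data, 148 moved a value by less than its counting error or kept a count within 1.5 times, 177 moved it further without a change of sign and 2 reversed it. Both reversals concern the share of NG2-tdT+ cells after physical injury minus naïve, 0.750 points, which became -1.50 at 2000 UMIs and -1.87 with 1 or more genes asked. The cause was not tested.

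The share of NG2-tdT+ cells after ischemic injury minus naïve, 10.5 points, was 8.05 at 500 UMIs, 11.9 at 2000 UMIs, 8.59 with 3 or more genes, 8.18 with 35 genes and 7.20 with the study's filters on cells. Ischemic cluster 7, at 70.8%, was at 54.2% at 500 UMIs, 79.5% at 2000 UMIs, 86.0% with 1 or more genes, 59.9% with 3 or more and 57.0% with 35. It held 54.5% of the carriers of its library, and 69.1%, 34.6%, 22.3%, 78.7% and 80.8% in the same order, with 42.7% under the study's filters.

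In the Tbx18 line, ischemic injury minus naïve, 5.15 points, was 2.15 at 500 UMIs, 2.32 with 3 or more genes and 2.68 with 35 genes, and physical injury minus naïve, 4.32 points, was 1.62, 1.6 and 1.92 there and 6.63 with 1 or more genes. Ischemic cluster 4, at 32.9%, was at 21.0% at 500 UMIs, 51.9% at 2000 UMIs, 57.9% with 1 or more genes and 24.3% with 3 or more. It held 26.9% of the carriers, and 42.3%, 17.6%, 10.5% and 68.0% in the same order, with 68.5% by 35 genes.

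The summed genes' log2 ratio to naïve in the NG2 line, 2.43 after ischemic and 0.37 after physical injury, was 2.36 and 0.24 with TMM factors, 4.84 and 1.88 with 35 genes, and 1.83 and 0.062 under the study's filters. The first was 1.63 as a mean over cells. For the Tbx18 line, 0.78 and 0.59 became 0.88 and 0.76 with TMM factors and 2.18 and 1.70 with 35 genes. Summed levels of 6633 CPM in ischemic cluster 7 and 2561 CPM in ischemic Tbx18 cluster 4 were 6940 and 2721 CPM with TMM factors, 4258 and 1531 CPM with 35 genes, and 6704 and 2357 CPM under the study's filters, and the latter was 2132 CPM as a mean over cells.

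Of the counts of members at least 2-fold higher, a pseudocount of 10 CPM took physical injury against naïve in the NG2 line from 24 to 0, both Tbx18 contrasts with naïve from 24 to 1 and from 25 to 6, and ischemic against physical injury in cluster 7 from 7 to 3. Without cluster 7 the NG2 counts of physical injury against naïve and ischemic against physical injury were 5 and 24. A minimum of 50 counts left 25 for cluster 7 against cluster 6 after physical injury, since fewer genes could be tested, and TMM factors gave 11 in cluster 7. TMM moved the median of all genes by over 0.1 only in physical and ischemic injury against naïve in the Tbx18 line (0.15 and 0.19), cluster 7 against cluster 6 after ischemic injury (0.42) and ischemic against physical injury in cluster 7 (0.12). The naïve Tbx18 library held the fewest UMIs, 3153996, and 17 of the 40 genes had 0 UMIs there. Of the 21008 genes of that line, 15387 were detected in it. Whether depth set these zeros was not tested.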
